A study of Mus musculus with 4 samples.

Results

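The genes of oxidative phosphorylation (OXPHOS), the mitochondrial pathway that makes ATP, were followed in a mouse lymphoma line treated with an inhibitor of gamma-secretase. The genes were taken by name: a probe set counted when its only gene symbol in the platform annotation began with Nduf, Uqcr, Cox4 to Cox8 or Atp5, or was Sdha, Sdhb, Sdhc or Sdhd. That gave 179 probe sets of 90 genes, out of 18193 genes measured, and of several probe sets for a gene the brightest, by its mean over all arrays, was used. Of the 90 genes, 82 encode subunits of the 5 complexes or isoforms of them: 34 for complex I, 4 for complex II, 8 for complex III, 19 for complex IV and 17 for complex V. The other 8 encode assembly factors of complex I, which share the Nduf name but are not part of the finished enzyme. Ndufa4 and its relative Ndufa4l2 were counted with complex IV, where the Ndufa4 protein sits.

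The samples were 4 RNA preparations of T29, a cell line from a mouse thymic lymphoma. Per the titles, 2 arrays held RNA of cells treated with DMSO, the solvent control, and 2 held RNA of cells treated with MRK003, the gamma-secretase inhibitor (GSI). The dose is written as 5 mM and the time as 36 h. All 4 samples carry the same treatment text, and the dose unit could not be checked. Nothing states whether the 2 replicates of a group were grown separately. The p-values therefore rest on the spread between these arrays alone, and that spread may be only technical. The array values are log2 expression per probe set. A difference of 1 is a 2-fold change.

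The respiratory chain passes electrons from NADH (complex I) and succinate (complex II) through ubiquinone to complex III, then through cytochrome c to complex IV, where oxygen is reduced. Complexes I, III and IV pump protons out of the mitochondrial matrix, and complex V, the ATP synthase, lets them flow back to make ATP. Most subunits are encoded in the nucleus and imported, and a small set, including the core of the proton pumps, is encoded by mitochondrial DNA. Gamma-secretase cuts membrane proteins such as the Notch receptors.

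Array medians lay between 4.86 and 4.89. Across probe sets the correlation was 0.996 within DMSO, 0.997 within GSI and 0.991 to 0.994 across the groups. The T cell label was looked at in the 8 of 10 listed T-lineage markers that had a probe set with a single symbol. They lay between 9.42 and 12.65 on all arrays. Of these Cd3g fell (-0.47), and Cd247 (0.81) and Thy1 (0.53) rose, 37.5% called, against 4.12% of all genes. The 5 B cell markers lay between 3.40 and 5.10, and the median levels of the myeloid, erythroid, stromal and epithelial, striated muscle and germ cell lists between 3.67 and 4.71. In the stromal and epithelial list Pdgfrb, with a DMSO mean of 8.69, fell (-1.28, limma adjusted p = 0.00475) and Pecam1, with a DMSO mean of 6.92, rose (0.64, 0.0186). Brightness also depends on the probes, so these levels describe the arrays and are no test of the cells' identity. The part of these markers in the OXPHOS values was not tested. In limma (two-sided, Benjamini-Hochberg over all genes, adjusted p under 0.05) 284 genes were lower and 466 higher with GSI.

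The subunit genes of the 5 complexes as a whole lay close to their DMSO level after GSI. Their median difference, GSI minus DMSO, was -0.016 on the log2 scale (82 genes), against -0.012 over all 18193 genes. In such bulk samples fewer cells of a type and less RNA per cell cannot be told apart. No subunit gene passed: limma called 0 of 82, with 6 lower and 4 higher at an unadjusted p under 0.05. With other settings of the test up to 5 were called in each direction, under a setting that called 899 lower and 1042 higher over all genes. The genes that passed were 2 of the 8 complex I assembly factors, Ndufaf4 and Ndufaf6, both of which fell. Of the 90 genes 2 were thus called lower, 2.22%, where 1.56% of all genes were called lower, and 0 were called higher, where 2.56% were. Counting either direction, 2.22% of these genes and 4.12% of all genes were called. At an unadjusted p under 0.05, 14.4% of the 90 genes differed, against 21.5% of all genes (10.7% lower and 10.8% higher). Both GSI arrays lay below both DMSO arrays in 33 of the 90 (36.7%, against 27.7% of all genes) and above them in 21 (23.3%, against 23.7%).

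The arrays allowed a bound on most subunits. The 95% interval of the difference lay inside 1 log2 unit, a 2-fold change either way, for 81 of 82 subunit genes, and inside 0.5 for 73. The same held for 97.1% and 72.8% of all genes. These are intervals for single genes, not adjusted for their number. The median log2 level was 11.35 over the probe sets of the 90 genes and 5.78 over those of all genes. The exception at the 2-fold bound was Cox6a2, whose interval ran from 0.38 to 1.34.

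**Figure D1:**
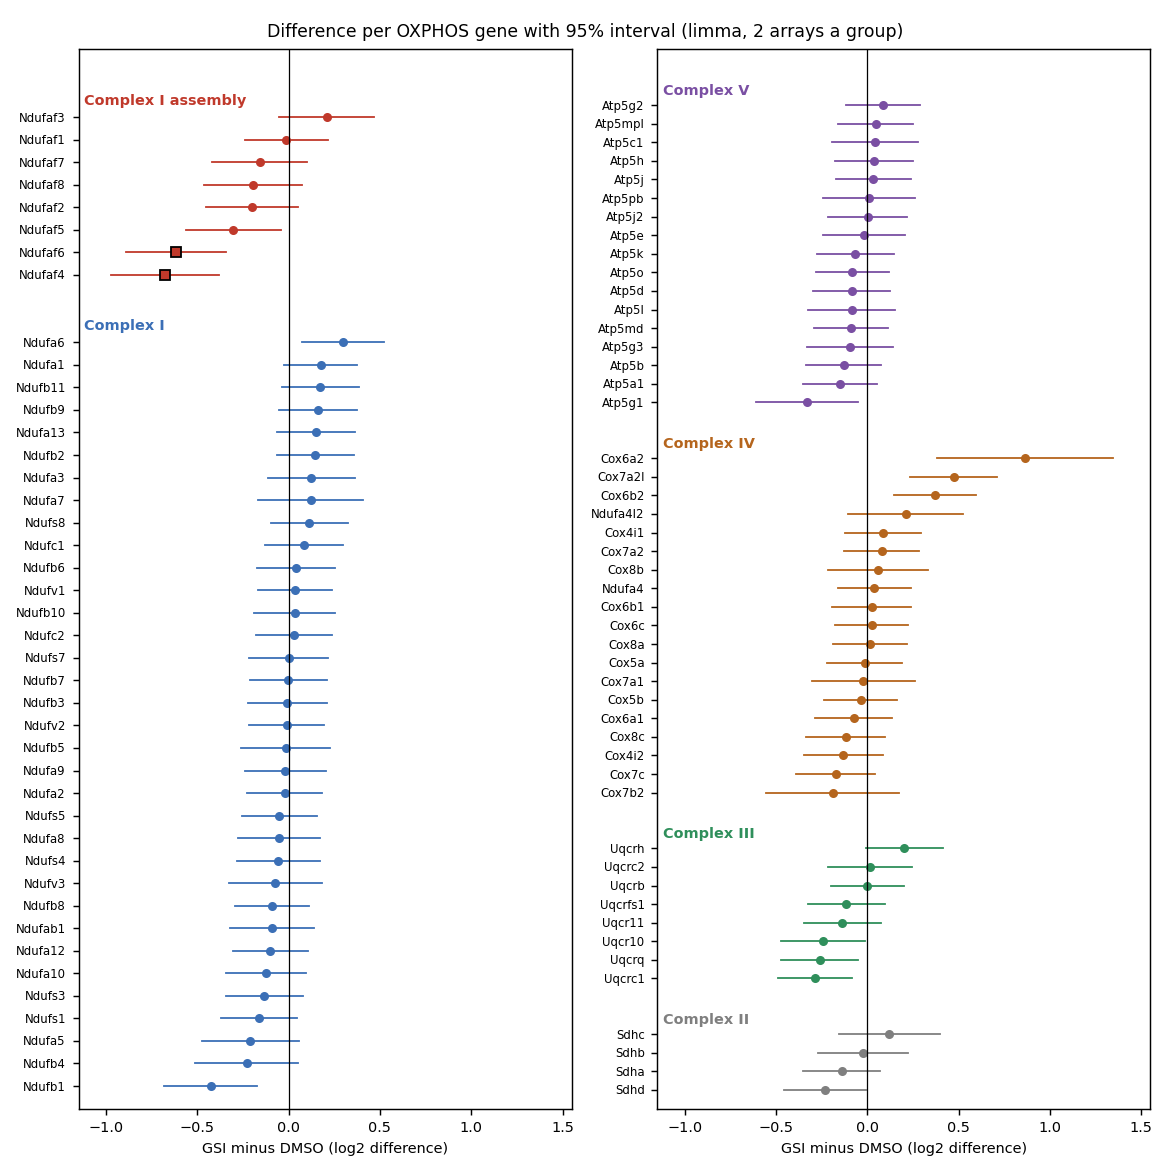
Difference between GSI and DMSO for each of the 90 OXPHOS genes (points; x axis in log2 units) with its 95% interval from limma (lines), grouped by complex. Squares mark the genes past an adjusted p of 0.05, which are Ndufaf4 (-0.68) and Ndufaf6 (-0.62); most subunit points lie near 0 and Cox6a2 (0.86) lies farthest to the right.

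The assembly factors of complex I help to build the enzyme from separately made modules and then leave it. With GSI 7 of the 8 had lower means, and the median difference was -0.20. In 5 of them both GSI arrays lay below both DMSO arrays, where 27.7% of all genes did so. The DMSO arrays also differed from each other in these genes: replicate 1 was the higher in 7 of 8, and the median of replicate 2 minus replicate 1 was -0.19. The part of that difference in the calls was not tested.

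Ndufaf4 acts early, when the part of complex I that binds ubiquinone is put together. Its values were 10.39 and 10.10 with DMSO and 9.57 on each GSI array. The GSI values coincided to 2 decimals, and the DMSO values lay 0.30 apart and both above them. The gene fell 1.60-fold, from 10.25 ± 0.21 to 9.57 (SD, n = 2; difference -0.68, SE 0.12, limma adjusted p = 0.0432). Its dimmer probe set differed by -0.64. The stretch of 250 bases before its start (GRCm38.p6, RefSeq, chr4:24897833-24898082, plus strand) is shown because Ndufaf4 is a called gene with an entry in the promoter table. Capitals mark a match to the core of the motif of NRF1, a transcription factor known for regulating OXPHOS genes.
Ndufaf4 promoter: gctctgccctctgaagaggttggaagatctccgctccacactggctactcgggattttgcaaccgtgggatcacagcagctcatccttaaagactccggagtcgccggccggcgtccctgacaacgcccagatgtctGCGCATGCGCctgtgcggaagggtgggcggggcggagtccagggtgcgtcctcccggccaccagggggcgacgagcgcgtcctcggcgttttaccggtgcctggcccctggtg

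Ndufaf6 is needed for an early step in which a membrane part of the enzyme is made. It stood at 8.95 and 8.74 with DMSO and at 8.16 and 8.30 with GSI, with no overlap. The gene fell 1.53-fold, from 8.85 ± 0.15 to 8.23 ± 0.10 (SD, n = 2; difference -0.62, SE 0.11, limma adjusted p = 0.0446). Both calls sat near the threshold. Ndufaf4 and Ndufaf6 passed in 5 of 7 other settings but not in a test of all probe sets (adjusted p = 0.0759 and 0.0784) and not with a replicate block (0.100 and 0.122). Neither passed in any of the 4 fits that left out 1 array: without DMSO replicate 1 the differences were -0.53 and -0.51, and without DMSO replicate 2 they were -0.83 and -0.72.

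The other 6 assembly factors did not pass. Ndufaf5, which modifies the subunit Ndufs7, was measured at 7.79 on both DMSO arrays and with GSI at 7.37 and 7.60, a difference of -0.30 (SE 0.11, limma adjusted p = 0.182). Ndufaf2 and Ndufaf8 differed by -0.20 each, Ndufaf7 by -0.16 and Ndufaf1 by -0.01. Ndufaf3, which works together with Ndufaf4, differed the other way: 9.20 and 8.97 with DMSO, 9.31 and 9.27 with GSI, a difference of 0.21 (SE 0.11, limma adjusted p = 0.325).

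Complex I takes electrons from NADH. Its 34 measured subunit genes had a median difference of -0.009, 20 with lower and 14 with higher means. Limma called 0, with 1 lower and 1 higher at an unadjusted p under 0.05 (10.7% and 10.8% of all genes). The 6 core genes, whose proteins form the electron-carrying core of the arm in the matrix, had differences from -0.16 to 0.11. Ndufs1 lay at 10.36 and 10.33 with DMSO and at 10.15 and 10.21 with GSI (difference -0.16, SE 0.08, limma adjusted p = 0.333). Ndufs8 lay at 11.74 and 11.73 against 11.90 and 11.80 (0.11). For Ndufs3 the difference was -0.13, for Ndufv1, which binds NADH, 0.04, for Ndufv2 -0.01 and for Ndufs7 -0.0004. Another probe set of Ndufs7 was 10.45 and 10.36 against 10.21 and 10.24 (-0.17), and the mean of its probe sets differed by -0.09. The dimmer probe sets of Ndufv1 differed by -0.05 and -0.09. All 6 intervals of the probe sets used lay inside 0.5.

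Accessory subunits surround this core and stabilise it. The 8 of the matrix arm ranged from -0.21 (Ndufa5) to 0.30 (Ndufa6). Ndufa6 had values of 10.98 and 11.00 with DMSO and of 11.36 and 11.22 with GSI. The groups did not overlap, and the difference of 0.30 (SE 0.09) did not pass limma (adjusted p = 0.140). The 20 genes of the membrane arm split evenly, 10 with lower and 10 with higher means. Ndufa1, needed for assembly of the membrane arm, was 12.03 and 12.01 with DMSO and 12.19 on both GSI arrays (0.17, SE 0.08, limma adjusted p = 0.291).

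Ndufb1, a small subunit of the membrane arm, was the subunit with the largest negative difference. Its values were 8.04 and 7.94 with DMSO against 7.47 and 7.66 with GSI. The groups were apart, by -0.43 on average (SE 0.10), and limma gave an adjusted p of 0.0851. Leaving out dim genes took its adjusted p to 0.0392, and an intensity trend with a robust prior took it to 0.0294. Ndufb4 was represented by a dim probe set, at 3.56 and 3.74 with DMSO and 3.52 and 3.32 with GSI. A pair of brighter probe sets that the annotation shares between Ndufb4 and its copies Ndufb4b and Ndufb4c had means that differed by -0.09 and -0.10.

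Complex II is succinate dehydrogenase, which also works in the tricarboxylic acid cycle and has no subunit made from mitochondrial DNA. None of its 4 genes passed limma, with 1 lower at an unadjusted p under 0.05, where 10.7% of all genes were. Sdha, the flavoprotein that oxidises succinate, was 11.35 and 11.27 with DMSO and 11.19 and 11.15 with GSI (difference -0.14, SE 0.09, limma adjusted p = 0.411). Another probe set of Sdha was 10.48 and 10.58 against 10.47 and 10.51 (-0.04), with overlapping groups. Its dimmest probe sets differed by 0.14 and -0.25. Sdhb, the iron-sulphur subunit, was 10.88 and 10.72 against 10.83 and 10.72 (-0.02), with overlapping groups. The membrane anchors differed in opposite directions. Sdhc was 10.54 and 10.30 against 10.60 and 10.49 (0.12), and Sdhd was 10.73 and 10.66 against 10.40 and 10.53 (-0.23, SE 0.09, limma adjusted p = 0.222). A dimmer probe set of Sdhd differed by 0.16, so the probe sets of this gene disagreed in sign.

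Complex III passes electrons from ubiquinol to cytochrome c. Its 8 genes taken by name had a median difference of -0.13. In 5 of the 8 both GSI arrays lay below both DMSO arrays, as in 27.7% of all genes. Cyc1, the cytochrome c1 subunit, lay outside the name rule and was counted with other chain components and carriers. It was 12.23 and 12.14 with DMSO and 11.95 on both GSI arrays (-0.23, limma adjusted p = 0.202). Limma called 0 of the 8, with 3 lower at an unadjusted p under 0.05, where 10.7% of all genes were. Uqcrc1, a core protein on the matrix side, was 11.37 and 11.36 with DMSO and 11.06 and 11.10 with GSI, a difference of -0.29 (SE 0.08, limma adjusted p = 0.121). Its partner Uqcrc2 was 11.38 and 11.26 against 11.28 and 11.38 (0.01), with overlapping groups. Another probe set of Uqcrc2 was 11.43 and 11.34 against 11.23 on both GSI arrays (-0.15), with groups apart, so the probe sets of Uqcrc2 disagreed.

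Among the small subunits of complex III, Uqcrq was 11.64 and 11.66 with DMSO and 11.35 and 11.43 with GSI (-0.26, SE 0.09, limma adjusted p = 0.157). Its 3 dimmer probe sets also had negative differences, from -0.30 to -0.16. Uqcr10 differed by -0.24 and Uqcr11 by -0.14. Uqcrh, the hinge protein that helps cytochrome c to dock, had a higher mean, at 12.13 and 12.04 against 12.30 and 12.27 (0.20, SE 0.09, limma adjusted p = 0.253). Uqcrfs1, the Rieske iron-sulphur protein, differed by -0.12 and Uqcrb by -0.0003. Under the trend setting limma called Uqcrc1, Uqcrq and Uqcr10 lower and Uqcrh higher. That setting called more genes everywhere: 899 lower and 1042 higher of all 18193, against 284 and 466 in the reported fit.

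Complex IV, cytochrome c oxidase, hands the electrons to oxygen. Several of its nuclear subunits exist as a form made in most tissues and a form restricted to muscle, testis or other tissues. Limma called 0 of the 19 genes, with 0 lower and 3 higher at an unadjusted p under 0.05. Of all genes 10.7% were lower and 10.8% higher at that level. In the 10 widely expressed genes the median difference was 0.019, and all 10 intervals lay inside 0.5. Cox4i1, a subunit that takes part in control by ATP, was 12.51 and 12.46 with DMSO and 12.60 and 12.55 with GSI (0.09). Cox5a was 12.47 on both DMSO arrays and 12.42 and 12.49 with GSI (-0.02), and Cox5b 12.86 and 12.83 against 12.81 and 12.80 (-0.04). The other members ranged from -0.17 (Cox7c, read by a probe set at 6.74 to 6.98) to 0.08 (Cox7a2).

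The 3 largest positive differences of all 90 genes were in isoforms and relatives of complex IV subunits. None passed limma on all genes. Cox7a2l encodes a relative of Cox7a2 that links complex III to complex IV in supercomplexes. It was 10.87 and 10.90 with DMSO and 11.45 and 11.27 with GSI. Groups were well apart, the difference was 0.47 (SE 0.10, a 1.39-fold difference), and the limma adjusted p was 0.0579. Its other 2 probe sets differed by 0.56 and 0.53. Cox7a2l passed in 5 of the 7 other settings (adjusted p = 0.00472 to 0.129 over the 7). The 250 bases before its start (GRCm38.p6, RefSeq, chr17:83514334-83514583, minus strand) are shown beside those of Ndufaf4. They hold none of the 5 motifs searched, and 63 of the 74 OXPHOS windows in the promoter table lack the NRF1 core. A link between the motifs and the direction of a difference was not tested.
Cox7a2l promoter: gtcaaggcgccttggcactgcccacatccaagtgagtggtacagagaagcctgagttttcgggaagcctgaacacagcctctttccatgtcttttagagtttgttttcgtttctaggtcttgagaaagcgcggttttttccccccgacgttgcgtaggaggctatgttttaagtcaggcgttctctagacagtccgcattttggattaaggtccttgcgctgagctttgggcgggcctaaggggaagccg

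Cox6a2 is the heart and skeletal muscle form of subunit VIa. It was 8.26 and 8.33 with DMSO and 9.46 and 8.86 with GSI. The DMSO arrays lay together, and the GSI arrays, both above them, lay 0.60 apart. The difference was 0.86 (SE 0.19, limma adjusted p = 0.0727), 0.56 without GSI replicate 1 and 1.16 without GSI replicate 2. A dimmer probe set differed by 0.89. The call for Cox6a2 was made in 3 of the 7 other settings: without dim genes (adjusted p = 0.0367), on centred arrays (0.0397) and under the trend setting (0.0235). Of 8 striated muscle markers limma called 0. Their median level was 4.71, under the median of all probe set values (4.88), so little can be read from the absence of calls. The 8 ranged from -0.15 (Myh6) to 0.27 (Acta1), none of them past the threshold. Both GSI arrays lay above both DMSO arrays in 2 of the 8, Acta1 and Myh7, against 23.7% of all genes. They lay below them in 1 of the 8, against 27.7% of all genes. Among the others, the creatine kinase gene Ckm differed by -0.04 and the troponin gene Tnnt2 by -0.11, and the myosin gene Myh7 differed by 0.26. The widely expressed form Cox6a1 was 13.19 and 13.11 against 13.07 on both GSI arrays (-0.08).

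Cox6b2, the testis form of subunit VIb, was 7.27 and 7.36 with DMSO and 7.63 and 7.74 with GSI (0.37, SE 0.09, limma adjusted p = 0.0898). Both GSI arrays lay above both DMSO arrays. The widely expressed Cox6b1 differed by 0.02. Of 6 germ cell markers 0 were called. Their median level was 3.67, under the median of all probe set values (4.88), so little can be read from this.

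The remaining isoforms did not pass. Cox8c differed by -0.12, and its dimmer probe set by 0.23. Cox7a1, Cox8b and Cox7b2 had means under the median of all probe set values, so little can be read from their differences of -0.02, 0.06 and -0.19. Cox4i2 and Ndufa4l2 are relatives of Cox4i1 and Ndufa4 that are known to be induced by low oxygen in other cells. Cox4i2 was 5.17 and 5.19 with DMSO and 5.10 and 5.00 with GSI. Ndufa4l2 was 6.03 and 5.72 against 6.15 and 6.02, with overlapping groups, while Ndufa4 was 11.42 on both DMSO and 11.46 on both GSI arrays.

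**Figure D2:**
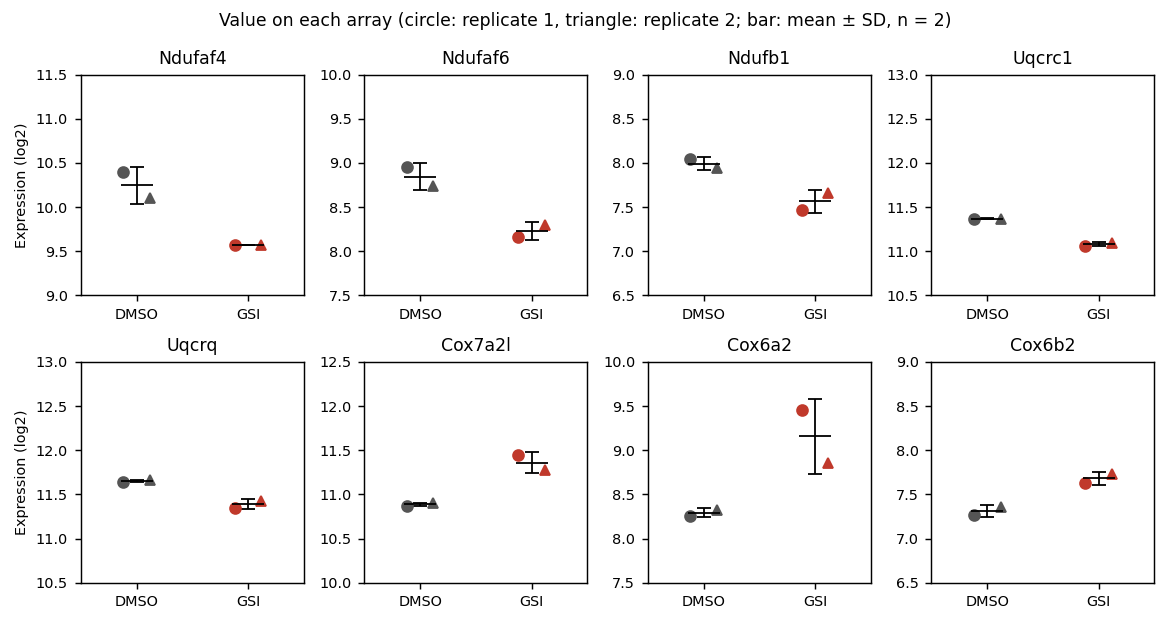
Log2 expression on each array for 8 OXPHOS genes (circles replicate 1, triangles replicate 2; bars mean ± SD, n = 2; each panel spans 2.5 log2 units). Ndufaf4, Ndufaf6, Ndufb1, Uqcrc1 and Uqcrq are lower on both GSI arrays and Cox7a2l, Cox6a2 and Cox6b2 higher, with the GSI arrays of Cox6a2 0.60 apart.

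Complex V makes ATP. Its 17 genes had a median difference of -0.066, with 10 lower and 7 higher means. Limma called 0 of the 17, with 1 lower at an unadjusted p under 0.05, where 10.7% of all genes were. The catalytic head is built from the products of 5 genes. Atp5a1 was 12.49 and 12.47 with DMSO and 12.32 and 12.34 with GSI (-0.15, SE 0.08, limma adjusted p = 0.365). Its dimmer probe sets differed by -0.06 and -0.09. Atp5b, which carries the catalytic sites, was 12.96 and 12.94 against 12.79 and 12.85 (-0.13). In both genes the groups were apart by more than the replicates. Atp5c1, the rotating shaft, was 12.29 and 12.21 against 12.37 and 12.22 (0.04).

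The ring that turns in the membrane is made of identical copies of subunit c, encoded by 3 genes whose mature proteins are the same. These did not share a direction. Atp5g1 was 11.81 and 11.55 with DMSO and 11.37 and 11.32 with GSI, a difference of -0.33 (SE 0.11, limma adjusted p = 0.170), which was -0.20 without DMSO replicate 1 and -0.46 without DMSO replicate 2. Atp5g2 was 12.16 and 12.19 against 12.27 and 12.24 (0.08). Atp5g3 was 12.98 and 12.83 against 12.76 and 12.85 (-0.10), with overlapping groups. The 4 stalk genes that hold the head still ranged from -0.08 to 0.04, and the 5 genes of small membrane subunits from -0.09 to 0.04.

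Within the groups, the 2 DMSO arrays were not alike in these genes. DMSO replicate 1 was the higher of the pair in 68 of 90 OXPHOS genes (75.6%), where it was the higher in 55.1% of all genes. The median of replicate 2 minus replicate 1 was -0.057, against -0.021 over all genes. By complex it was -0.049 for complex I, -0.12 for complex II, -0.047 for complex III, -0.002 for complex IV, -0.061 for complex V and -0.19 for the assembly factors. Over the 82 subunit genes the median DMSO replicate difference without its sign was 0.074, against 0.109 over all genes. Within GSI it was 0.063, against 0.108. The median difference between DMSO and GSI without sign was 0.087, against 0.124. That last difference is between means of 2 arrays, which vary less than single arrays, so its size cannot be set directly against the replicate differences. The GSI arrays split 48 to 42, with a median of -0.005. Their assembly factors had a median of 0.13, opposite in sign to the DMSO arrays.

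Genes of glycolysis, which makes ATP without oxygen, and of the hypoxia response differed between the same arrays by more. Of 23 measured genes of this list, OXPHOS genes left out, 23 were higher on the second DMSO array (median 1.06) and 23 on the second GSI array (median 0.59). The mitophagy gene Bnip3, for example, was 7.03 and 10.34 with DMSO and 7.84 and 9.09 with GSI. Between GSI and DMSO 0 of the 23 were called, with 4 lower at an unadjusted p under 0.05, where 10.7% of all genes were. The median of the 23 was -0.48. Mif differed by -0.43 (limma adjusted p = 0.163) and Hk2, the first enzyme of glycolysis, by -1.07 (0.178). The part of this difference between arrays in the OXPHOS values was not tested. Leaving out single arrays kept the median over the 90 OXPHOS genes between -0.046 and 0.001.

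**Figure D3:**
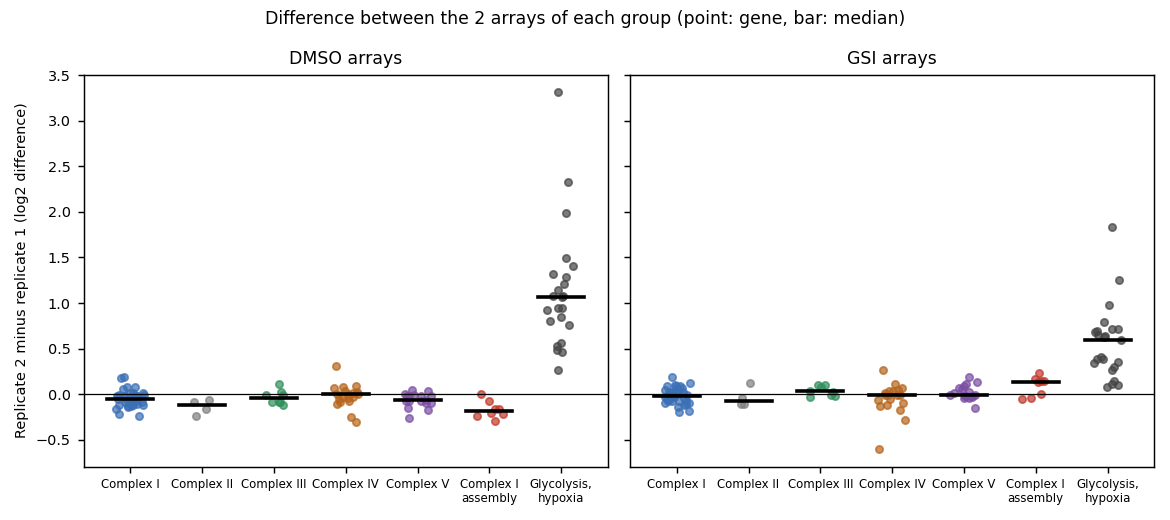
Replicate 2 minus replicate 1 (log2 difference) within the DMSO arrays (left) and the GSI arrays (right) for each gene of the OXPHOS groups and of the glycolysis and hypoxia list; bars are medians. Most OXPHOS genes lie just under 0 on the DMSO side (median -0.057 over 90 genes), while all 23 glycolysis and hypoxia genes lie above 0 on both sides.

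Around the nuclear subunits, other genes of mitochondrial respiration were compared by lists chosen with earlier results of these data known. Of 13 subunits made from mitochondrial DNA 1 was measured by a probe set with a single symbol, ND5, a proton-pumping subunit of complex I, and the others were not analysed here. ND5 was 10.94 and 11.03 with DMSO and 11.55 and 11.71 with GSI, so both GSI arrays lay above both DMSO arrays. ND5 rose 1.57-fold (difference 0.65, SE 0.10, limma adjusted p = 0.0297). It passed in 5 of 7 other settings, with an adjusted p of up to 0.0702 among them, and in none of the fits that left out 1 array. The nuclear partners of ND5 in the membrane arm had a median difference of 0.015.

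Assembly factors not named Nduf had a median of -0.10 over 40 genes, 28 with lower and 12 with higher means, and limma called 0, with 11 lower and 3 higher at an unadjusted p under 0.05 (10.7% and 10.8% of all genes). The 2 smallest p-values were those of Ecsit and Cox10. Ecsit, a complex I assembly factor, differed by -0.41 (limma adjusted p = 0.0560). Cox10, which makes haem for complex IV, differed by -0.41 (0.0586), and by -0.41 to -0.24 over the 7 other settings. In the mitochondrial protein import list DMSO replicate 1 was higher than replicate 2 in 18 of 19 genes, against 55.1% of all genes. The part of that difference in the values that follow was not tested. With GSI this list had 17 of 19 genes with lower means, as had 53% of all genes, and a median of -0.25. Of these 3 fell, where 1.56% of all genes did: Tomm40, the pore of the outer membrane (1.48-fold), Timm8a1, a chaperone between the membranes (1.44-fold), and Hspd1, the chaperonin of the matrix (1.43-fold). None of the list rose. The adjusted p values were 0.0437, 0.0372 and 0.0455 in limma, and each passed in 5 of 7 other settings and in none of the fits that left out 1 array.

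Further lists had few calls. Unadjusted p-values under 0.05 are given in brackets as lower and higher, beside 10.7% and 10.8% of all genes. Of 14 other chain components and carriers 0 were called (2 and 1, median -0.063). Dhodh, which feeds electrons to ubiquinone from pyrimidine synthesis, differed by -0.42 (limma adjusted p = 0.117). Atpif1, the inhibitor of ATP synthase, differed by 0.23 (0.189), and by 0.12 to 0.24 over the 7 other settings. Of 17 genes of mitochondrial DNA maintenance and transcription 0 were called (4 and 1; median -0.013), with the elongation factor gene Tefm at -0.43 (0.0898) and Tfam at -0.28 (0.130). Of 18 genes of the tricarboxylic acid cycle and pyruvate dehydrogenase 0 were called (5 and 0, median -0.11). Dlat differed by -0.33 (limma adjusted p = 0.12). Dlst differed by -0.31 (0.106), and by -0.31 to -0.12 over the 7 other settings. Of 10 regulators of OXPHOS genes 1 was called lower, where 1.56% of all genes were, and 0 higher (2 and 0; median -0.099). The called gene was the growth regulator Myc, which fell 1.54-fold (limma adjusted p = 0.0390). Myc also passed in 5 of 7 other settings and in no fit that left out 1 array. Pprc1 differed by -0.43 (limma adjusted p = 0.0626), Nrf1 by -0.10 and Gabpa by 0.02.

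**Figure D4:**
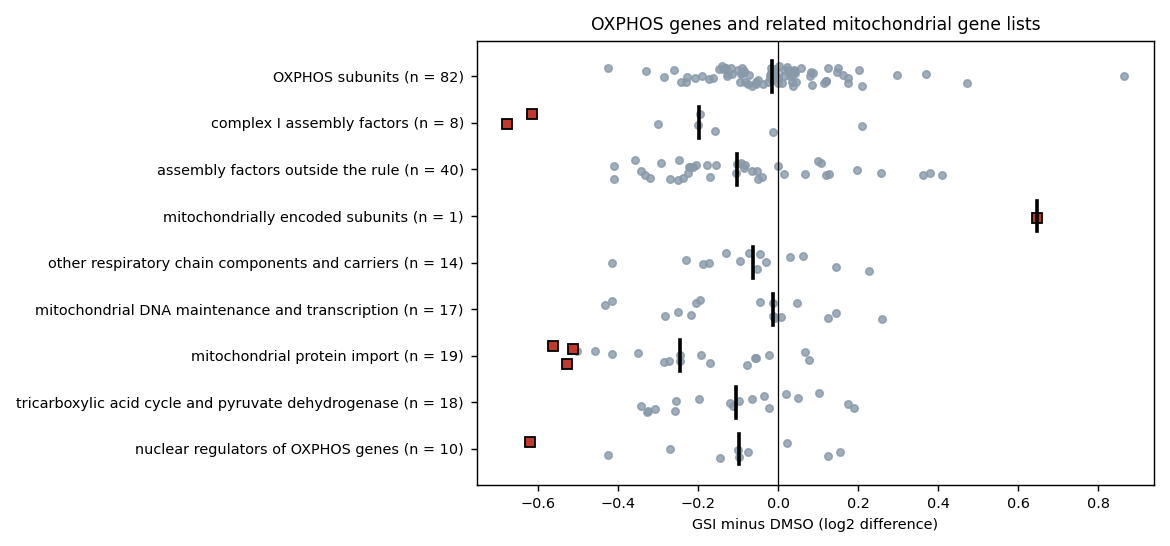
Difference between GSI and DMSO (log2; x axis) for each gene of the OXPHOS subunits, the complex I assembly factors and 7 related gene lists; bars are medians and red squares are genes past an adjusted p of 0.05 in limma. The 82 subunits hold no red square, the import list holds 3 to the left (Tomm40, Timm8a1 and Hspd1), and ND5 is the only called gene to the right.

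The promoters of these genes were searched for motifs, which the choice by name did not use. A window of 300 bases, 250 before to 50 after the start, was held in the RefSeq table (GRCm38.p6) for 74 of the 90 genes and 27025 genes in all. Both strands were searched. The NRF1 core GCATGCGC was found in 11 of 74 OXPHOS windows (14.9%) and in 3.05% of all genes. CCGGAAG, bound by GABP and other ETS factors, was in 19 (25.7%) against 9.93%, and AAGATGGCG, part of the motif of YY1, in 7 (9.46%) against 1.64%. The E-box CACGTG, bound by Myc and other factors, was in 6 (8.11%) against 8.09%, and TGACGTCA, the cyclic AMP response element, in 3 (4.05%) against 2.03%. The GC content also differed, with a median of 59% in OXPHOS windows and 52.7% in all. A match is a description of letters and not a bound site.

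Genes with the NRF1 core did not all share a direction. Of the 11, 9 had lower and 2 higher means, with a median of -0.075 and a range from -0.68 (Ndufaf4) to 0.30 (Ndufa6). Of the 63 windows without it, 37 belonged to genes with lower and 26 to genes with higher means, with a median of -0.016. In Ndufaf4 a pair of overlapping matches on opposite strands forms the 10 letters in capitals. Ndufa6 (GRCm38.p6, chr15:82354292-82354541, minus strand) is shown as the gene at the other end of that range, with its match in capitals.
Ndufa6 promoter: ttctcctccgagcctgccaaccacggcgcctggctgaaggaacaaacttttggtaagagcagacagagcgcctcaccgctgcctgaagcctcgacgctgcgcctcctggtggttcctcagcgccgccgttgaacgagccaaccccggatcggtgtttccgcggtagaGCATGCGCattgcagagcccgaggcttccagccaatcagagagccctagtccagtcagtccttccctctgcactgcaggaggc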

How the data were processed

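The authors deposited 1 table of log2 expression values, 1 per probe set and array, for 4 Affymetrix arrays. Per the submitters' processing notes the values were made with RMA, which corrects background, normalizes between arrays and summarises probes. The RMA version is not given in the sources used here. Differences of dim probe sets come out too small in such values, and a shift shared by most genes would be removed. There were 45101 probe sets and 0 missing values. After 64 control probe sets were left out, 34945 had 1 gene symbol, 932 several and 9160 none in the platform annotation. All 90 OXPHOS symbols matched RefSeq (GRCm38.p6) unchanged. Probe sets ending in _s_at (13 genes) or _x_at (6 genes) can also read related transcripts. For arrays, their number limits the precision.

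GSI was compared with DMSO in limma 3.58.1 (R 4.3.3; lmFit and eBayes, group as the only term) over 18193 genes, with 5.80 total degrees of freedom. SE and intervals are those of this moderated fit, and folds are back-transformed log2 differences. The fit was tested on simulated data.

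The OXPHOS genes, lists and markers were chosen with earlier results of these data known. The genes named were every called OXPHOS gene, the 2 largest differences per complex and direction, all complex II genes, the catalytic cores and the isoforms, and up to 4 called genes per list (or the 2 with the smallest p). Genes given beyond this, such as the other members of a small group, Bnip3, Nrf1 and the muscle markers, were picked with their values in view. The alternatives tried were every probe set tested, mean of probe sets, dim genes left out (mean under 4.88, the median of all values), trend and robust prior, centred arrays, cyclic loess, a replicate block and each array left out. The YY1 motif was shortened by 1 letter after a first count of its matches.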

Additional observations from a re-analysis of the deposited data

How the results depend on the processing

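OXPHOS genes called lower were 2 in the reported fit, 0 when every probe set was tested, 0 with a replicate block and 7 with the trend and robust prior. OXPHOS genes called higher were 0 in the reported fit, 1 with the mean of probe sets or cyclic loess, 2 with centred arrays, 3 with dim genes left out and 5 with the trend and robust prior, all of them subunits. Subunits called lower were 1 with dim genes left out and 5 with the trend and robust prior. Over all genes the trend and robust prior called 899 lower and 1042 higher of 18193. Without dim genes 685 and 899 of 10969 were called, with 86 of the 90 OXPHOS genes tested. Centred arrays called 384 and 611 of 18193, cyclic loess 364 and 553, and the mean of probe sets 379 and 512. In the test of every probe set 201 and 427 of 45037 were called. In the related lists the reported fit called 4 genes lower and 1 higher. These became 0 and 0 when every probe set was tested, 13 and 3 with dim genes left out, 22 and 4 with the trend and robust prior, 1 and 0 with the replicate block, and 7 lower with the mean of probe sets. Leaving out an array gave 0 to 0 calls for OXPHOS genes in either direction and for the lists, and the median of the assembly factors lay between -0.29 and -0.10. The lone array of a group was then assumed to vary like the other group. The calls over all genes in these fits numbered 0 to 6. The replicate numbers are not stated to pair the samples, and the differences between replicates correlated at only 0.085 between the groups over all genes. With the replicate block 70 genes of all were lower and 147 higher. Medians per complex and within groups moved by less than 0.0873, the median moderated SD of an OXPHOS gene, in all other settings run, and no called value changed sign, though the medians of all 90 genes, complex I and complex IV, all near 0, crossed it in some. Groups of 2 are too small for an outlier test.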

Other observations

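Probe sets that the annotation pairs with several genes were left out of the tests of genes. Of the 10 such probe sets that include an OXPHOS symbol, limma on all probe sets called 0, and 0 passed at an unadjusted p under 0.05. Among them the only bright reading of Ndufs6, shared with Ndufs6b, was 11.08 and 11.10 with DMSO and 11.08 and 11.03 with GSI. The reading of Ndufa11, shared with Ndufa11b, was 10.57 and 10.44 against 10.36 and 10.41. Of the 89 dimmer probe sets of OXPHOS genes with 1 symbol, 0 were called in either direction.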
